A study of Mus musculus with 2 samples.

Results

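Type I interferon-stimulated genes were followed across the cell types of J558 plasmacytoma allografts, as a list of 40 genes chosen by name. Of the 40 genes, 39 were found among the 32285 gene rows of both count matrices. Mx1, the remaining one, was not analysed here. The data are droplet single-cell RNA counts from J558, a mouse plasmacytoma line, grown under the skin of BALB/c female mice from cultured cells. The vehicle library came from an animal given 0.5% methylcellulose by mouth, and the TAK-931 library from one given 60 mg/kg of TAK-931, an inhibitor of the replication kinase CDC7, once daily, both for 6 days. Each arm held 1 library, so no difference between the libraries could be set against a spread between animals, and no test between them was possible. By the study's text each library came from 1 allograft, picked as representative, and all intervals given here cover counting error only.

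Type I interferons are cytokines released mainly when a cell senses foreign or misplaced nucleic acid. They bind the receptor IFNAR1/IFNAR2, whose kinases JAK1 and TYK2 act on STAT2, which with IRF9 is part of the factor ISGF3. ISGF3 binds a repeated GAAA element, the interferon-stimulated response element, before genes that block viral entry, translation or replication, sense RNA and DNA, or feed the response forward (Irf7) and back (Usp18). Many of these genes also respond to interferon gamma, so a rise in them does not by itself name the ligand.

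The response element itself could be read in the promoters of several members, and 6 of them are shown, 5 with the element and 1 without, from 11 members that the results below turn on. RefSeq promoter windows (GRCm38.p6, 250 bases before to 50 bases after each annotated start) were matched by symbol for 31 of the 40 genes. The letters GAAA, then any 2 bases, then GAAA were searched on both strands, overlapping matches counted, and 16 of the 31 genes (51.6%) held at least 1 match, against 1079 of 27025 genes (3.99%) with a window of the same length. The last 150 bases before the start are printed 5′ to 3′ on the strand of the gene, with the matched bases in capitals. Isg15 (chr4:156200819-156200968, minus strand) held 3 overlapping matches and Ifit1 (chr19:34640739-34640888, plus strand) held 2. Ifit3 (chr19:34583379-34583528, plus strand) and Rsad2 (chr12:26456453-26456602, minus strand) held 1 each, Bst2 (chr8:71537473-71537622, minus strand) held 2, and Irf7 (chr7:141266425-141266574, minus strand) held none in this window. The other 5, Ifitm3, Samhd1, Stat2, Oasl1 and Oasl2, also held none in these 150 bases, although Ifitm3 held 2 and Stat2 1 elsewhere in the whole window.
Isg15: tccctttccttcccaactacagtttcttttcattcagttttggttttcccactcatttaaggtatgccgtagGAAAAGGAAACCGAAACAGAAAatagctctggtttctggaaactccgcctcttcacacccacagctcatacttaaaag
Ifit1: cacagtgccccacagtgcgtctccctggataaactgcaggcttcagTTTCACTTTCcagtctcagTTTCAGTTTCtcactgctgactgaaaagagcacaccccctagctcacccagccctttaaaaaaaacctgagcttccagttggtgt
Ifit3: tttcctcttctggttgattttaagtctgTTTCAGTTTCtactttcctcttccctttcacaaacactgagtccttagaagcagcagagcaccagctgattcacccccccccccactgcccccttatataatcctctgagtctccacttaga
Rsad2: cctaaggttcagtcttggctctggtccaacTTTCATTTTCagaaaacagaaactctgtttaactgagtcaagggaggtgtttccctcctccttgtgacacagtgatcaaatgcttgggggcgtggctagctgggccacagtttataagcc
Bst2: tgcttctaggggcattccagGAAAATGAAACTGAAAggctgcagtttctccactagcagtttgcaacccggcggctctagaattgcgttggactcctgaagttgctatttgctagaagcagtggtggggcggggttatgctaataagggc
Irf7: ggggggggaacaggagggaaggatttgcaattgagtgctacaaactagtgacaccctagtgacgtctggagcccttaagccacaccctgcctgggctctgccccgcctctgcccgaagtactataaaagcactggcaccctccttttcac
A match describes the letters only, and says nothing of whether a factor was bound there in these tumours.

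The vehicle library held 4565 barcodes and 144767193 UMIs (unique molecular identifiers, counted transcripts), against 6558 barcodes and 77369283 UMIs after TAK-931. After the study's filter (over 2000 genes, under 15% mitochondrial UMIs), 3441 and 3488 cells were left, with medians of 40504 and 15097 UMIs. Cells were placed in classes by marker genes that include no member, and the classes are called "-like" because they rest on markers alone. Barcodes with markers of more than 1 class were set aside as mixed, 57 (1.66%) from vehicle and 333 (9.55%) from TAK-931. The libraries shared 8 barcodes, 1 of them among the kept cells. In the vehicle library 2994 cells were J558-like, 209 mononuclear phagocyte-like, 80 endothelial-like, 39 fibroblast- or mural-like, 14 dendritic-like and 12 T-like. In the TAK-931 library the same classes held 104, 1981, 167, 78, 37 and 616 cells. The labels give the cell type as B lymphocyte, whereas J558-like cells were 87.0% of the kept vehicle cells and 2.98% of the kept TAK-931 cells.

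Members were carried by different cells in the 2 libraries. In the vehicle library J558-like cells held 64.4% of all member UMIs because they held 94.2% of all UMIs, although their summed member level was only 462 CPM (the UMIs of a gene per 1000000 UMIs of the class). In the TAK-931 library phagocyte-like cells held 65.5% of the member UMIs and J558-like cells 1.42%. Per class, the summed member level was highest in plasmacytoid dendritic-like and phagocyte-like cells and lowest in J558-like and NK-like cells, in both libraries among classes with at least 5 cells. It was 6141 CPM in vehicle and 8898 CPM in TAK-931 phagocyte-like cells. It was 4781 and 7917 CPM in endothelial-like cells, and 3404 and 8211 CPM in fibroblast- and mural-like cells. These sums rest largely on Ifitm3 and Ifi27l2a. Without both, they were 2910 and 4060 CPM in phagocyte-like, 2503 and 4437 CPM in endothelial-like, and 1039 and 4013 CPM in fibroblast- and mural-like cells, so that the fibroblast- and mural-like class was the lowest of the 3 in vehicle either way, while the order after TAK-931 changed with these genes. Dendritic-like cells held 3547 and 4157 CPM, T-like cells 1501 and 2645 CPM, and J558-like cells 462 and 811 CPM. Without Ifi27l2a the T-like sums were 1154 and 1181 CPM, and T-like barcodes with over 500 and at most 2000 genes (34 and 272) held 3047 and 3151 CPM with it.

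The class with the highest level differed from member to member, often by little. Isg15 stood at 390 CPM (383 to 397) in phagocyte-like, 383 CPM (358 to 409) in fibroblast- and mural-like and 379 CPM (358 to 402) in endothelial-like cells of the TAK-931 library, and these intervals overlapped. In that library, over 9 classes, endothelial-like cells had the highest level of 11 members and phagocyte-like cells of 11 others. The endothelial-like set included Ifitm3, a membrane protein that blocks virus entry, at 3391 CPM, and Parp14, an ADP-ribosyltransferase, at 215 CPM. The phagocyte-like set included Ifi27l2a, a small protein of the interferon-induced ISG12 family, at 2786 CPM, and Irf7, the factor that amplifies interferon production, at 391 CPM. Fibroblast- and mural-like cells were highest for 9 members, among them Ifit1, which binds foreign capped RNA, at 201 CPM and Usp18, the protease that removes ISG15 and dampens the receptor. Plasmacytoid dendritic-like cells were highest for Bst2 (4721 CPM), Stat2 (133 CPM) and Trim30a (272 CPM), but carried Isg15 and Ifitm3 at only 36.0 CPM each. Bst2 encodes tetherin, which holds budding virus at the membrane and is itself a marker of plasmacytoid dendritic cells. Isg20, an exonuclease, was the only member highest in J558-like cells (78.0 CPM). Oas1a had 0 UMIs in all 9 classes of the TAK-931 library and in all 6 compared classes of the vehicle library. Because the protocol counts the 3′ end of each transcript, these CPM were not divided by transcript length.

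**Figure D1:**
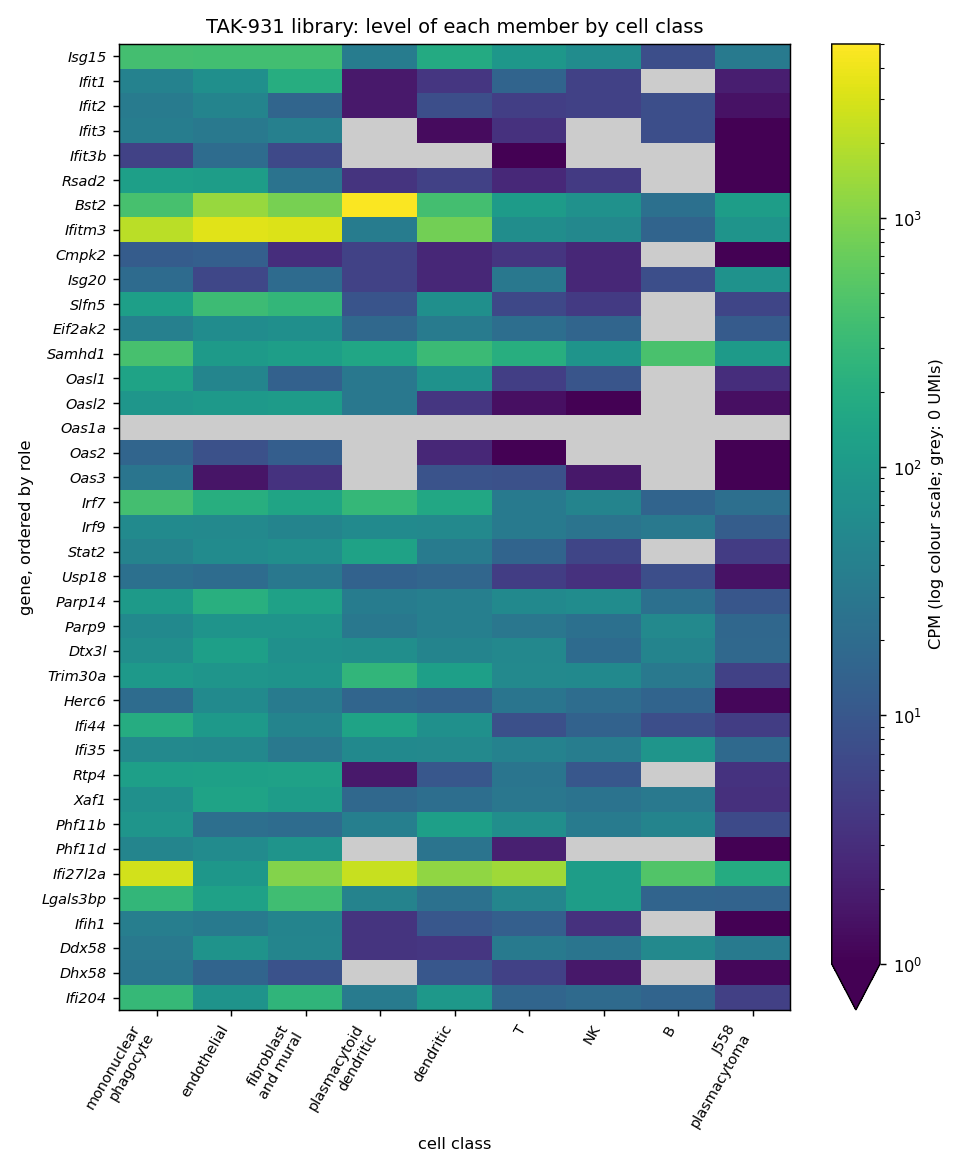
Level of each of the 39 members (rows, by role) in 9 cell classes (columns) of the TAK-931 library, as CPM on a log colour scale with grey for 0 UMIs. Ifitm3 is brightest in the endothelial and fibroblast and mural columns, Ifi27l2a in the phagocyte column and Bst2 in the plasmacytoid dendritic column.

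Within classes, TAK-931 was set against vehicle with UMIs summed over the cells of a class. A member was counted where its sums over both libraries reached 10 UMIs, and called higher or lower at a 2-fold difference. The order of the classes by median log2 ratio was fibroblast and mural (1.97, 36 members counted), J558 (1.00, 34), endothelial (0.77, 37), phagocyte (0.43, 38), dendritic (0.33, 26) and T (-0.05, 36). J558 lay below endothelial in 6 of 15 alternative settings, among them free RNA subtracted (0.72 against 0.76), Leiden classes (0.57 against 0.83) and thinned cells (0.44 against 0.85), and phagocyte lay below dendritic in 4 of 13, so neither order is firm. The median over all counted genes lay between -0.14 and 0.10 in these classes. No member was called higher in all 6 classes. Oasl2, Stat2 and Ifi27l2a were called higher in 4, although in J558-like cells Oasl2 lay below an estimate of free RNA (transcripts from other cells in the droplets) in both libraries and Stat2 fell under 2-fold once it was subtracted, and Ifi35, Isg20, Cmpk2 and Oas3 in none.

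**Figure D2:**
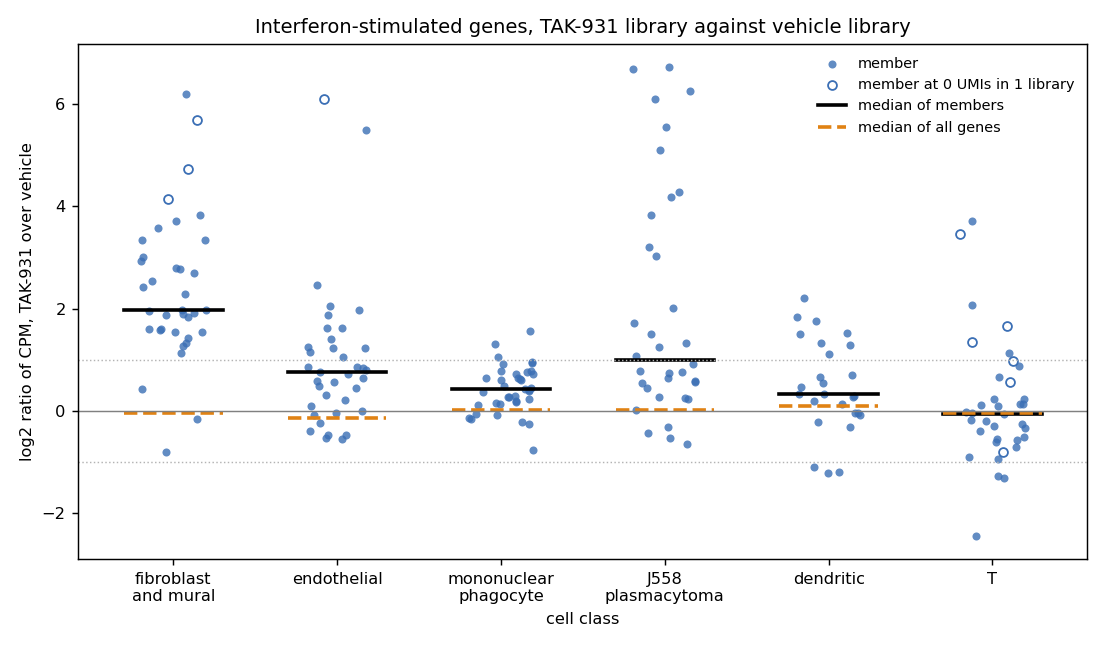
Log2 ratio of CPM, TAK-931 over vehicle, for each counted member (points; open where 1 library had 0 UMIs) in 6 cell classes, with the median of members (solid line), the median of all genes (dashed line) and the 2-fold limits (dotted). The member median is 1.97 in the fibroblast and mural class and -0.05 in T, where it lies on the all-gene median.

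Fibroblast- and mural-like cells differed most. Of 36 counted members, 33 were at least 2-fold higher in the TAK-931 library and 0 lower, where 14.6% of all 10895 counted genes were higher and 8.22% lower. The called members covered every role: 10 of 12 counted effectors, 3 of 3 oligoadenylate synthetase genes, 3 of 3 transcription factors (Irf7, Irf9, Stat2), 6 of 6 ubiquitin, ISG15 and ADP-ribosylation enzymes, 4 of 4 sensors and 7 of 8 other genes. The difference was widest for Ifi27l2a, which went from 14 UMIs in 5 of 39 vehicle cells to 2382 UMIs in 59 of 78 TAK-931 cells, or 13.9 to 1024 CPM (log2 ratio 6.21, 95% interval 5.46 to 7.08). Rsad2, which encodes the antiviral enzyme viperin, had 0 UMIs in vehicle and 59 in TAK-931 cells, at least 8.53-fold higher against a floor of 3 counts. These 59 UMIs lay in 18 cells, with 86.4% of them in 10 cells.

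Among the other effectors, Isg15, the ubiquitin-like modifier, stood at 97.2 CPM (interval 78.9 to 118) in vehicle and 383 CPM (358 to 409) in TAK-931 cells. Ifit1 stood at 16.9 and 201 CPM (log2 ratio 3.57), but 94.1% of its 17 vehicle UMIs came from 1 cell, whereas 47 of the 78 TAK-931 cells held it. Ifit3, its binding partner, went from 4 to 94 UMIs (3.35, 1.95 to 5.25). Bst2 went from 162 to 867 CPM (2.42). The regulator Irf7 went from 11 to 335 UMIs, or 10.9 to 144 CPM (3.72, 2.87 to 4.74), and Lgals3bp, a secreted glycoprotein, from 122 to 372 CPM (1.61). The smallest differences among called members were those of the DNA sensor Ifi204 (1.26) and of the ubiquitin ligase Dtx3l (1.13).

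The other 3 counted members did not pass the limit. Ifitm3 was already at 2350 CPM in vehicle cells and reached 3173 CPM (log2 ratio 0.43, 0.37 to 0.50). Ifi35, a leucine zipper protein, stood at 34.7 and 31.0 CPM (-0.16, -0.77 to 0.46), and Isg20 at 33.7 and 19.3 CPM (-0.80, -1.48 to -0.11).

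The balance of fibroblasts and mural cells differed between libraries, with 16 and 23 cells in vehicle and 48 and 30 in TAK-931. The difference was present in each alone. In fibroblast-like cells 29 of 36 counted members were at least 2-fold higher and 0 lower (14.6% and 14.0% of all genes) with a median of 1.53, and in mural-like cells 28 of 32 were higher and 1, Isg20, lower (19.2% and 6.78% of all genes) with a median of 2.63. In mural-like cells Ifi27l2a had 0 UMIs in vehicle and 208 in TAK-931 cells, at least 52.1-fold higher, but 1 of the 30 cells gave 48.6% of these UMIs. Isg15 was at 113 and 321 CPM in fibroblast-like cells, where 1 vehicle cell gave 53.6% of its UMIs, and at 81.9 and 533 CPM in mural-like cells, where 1 TAK-931 cell gave 37.6%. RNA of other cells was also present in this class. The 7 phagocyte markers summed to 11.9 CPM in vehicle cells, with Adgre1 and Fcgr1 at 0, and to 283 CPM with 7 of 7 detected in TAK-931 cells, against 10694 CPM in the phagocyte-like class of that library. The 6 T cell markers summed to 121 and 122 CPM. The 6 J558 markers summed to 466 CPM (6 of 6) in vehicle and 233 CPM (5 of 6) in TAK-931 cells, against 3660 and 4532 CPM in J558-like cells. Endothelial markers summed to 28.8 and 91.6 CPM, and NK markers to 0 and 20.6 CPM. The part of this RNA in the member ratios was not tested beyond the estimate that follows. Subtracting an estimate of free RNA left 33 members called and a median of 1.91, and the estimate accounted for 107 of the 1024 CPM of Ifi27l2a.

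**Figure D3:**
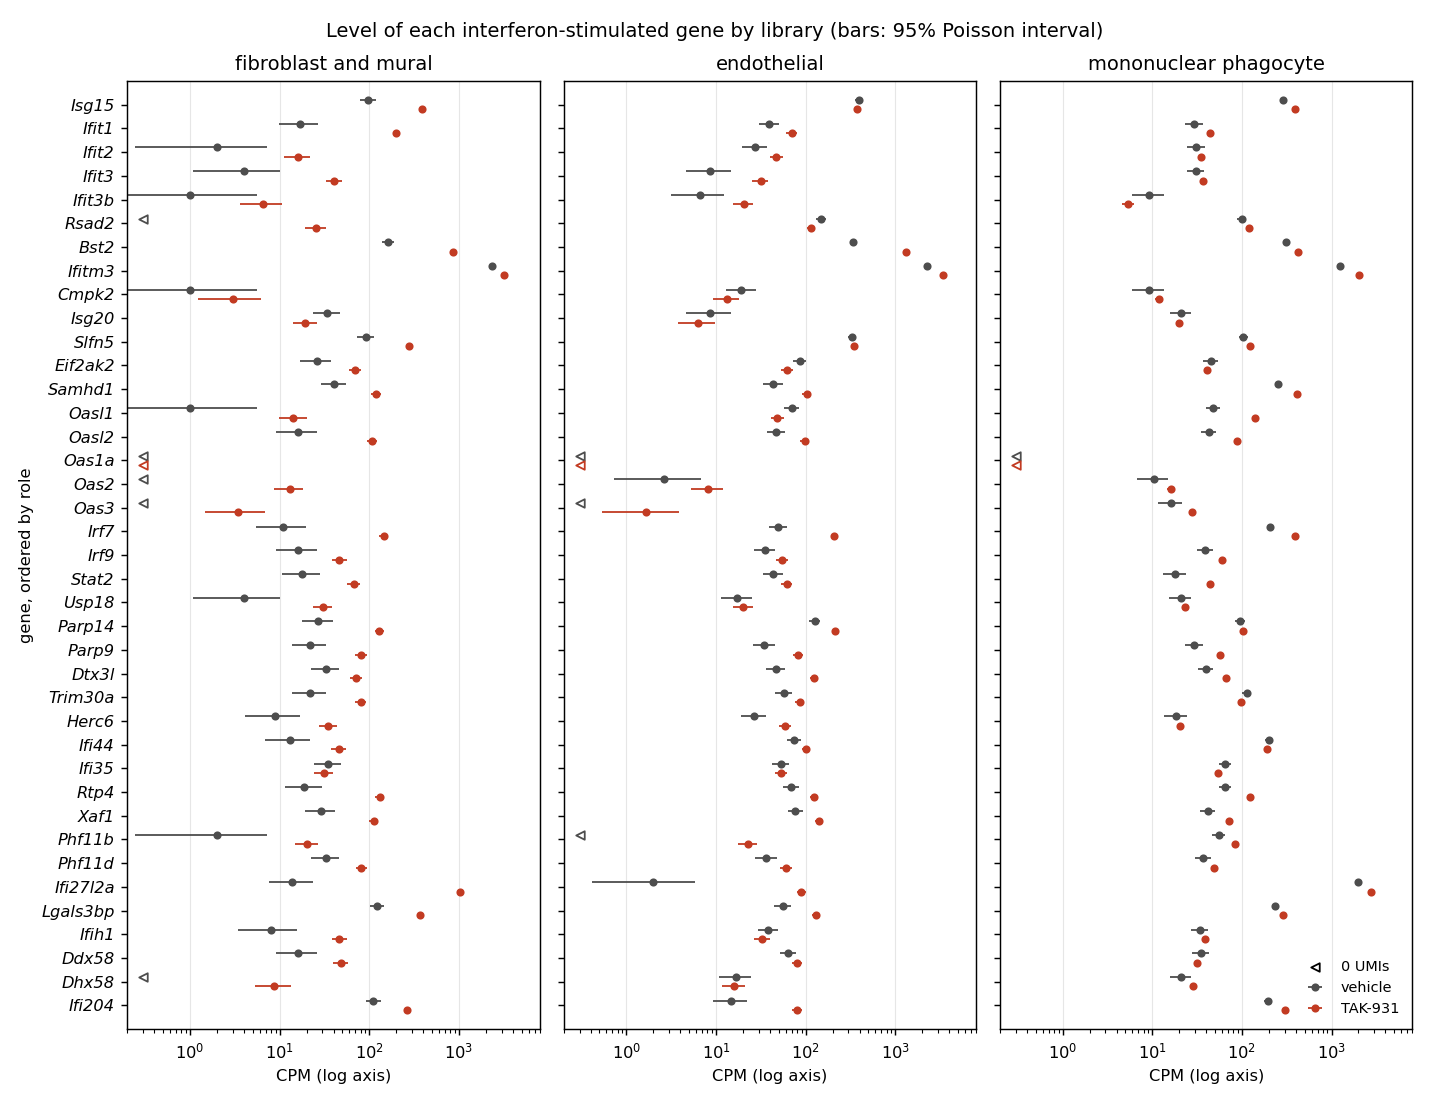
CPM of the 39 members (rows, by role) in fibroblast- and mural-like, endothelial-like and phagocyte-like cells on log axes, vehicle in grey and TAK-931 in red, with 95% Poisson intervals and open triangles for 0 UMIs. Red lies right of grey for nearly all rows on the left, for part of the rows in the middle, and by small steps on the right.

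Endothelial-like cells showed a narrower difference. Of 37 counted members 14 were at least 2-fold higher and 0 lower, where 9.68% of all 11190 counted genes were higher and 10.9% lower. All 14 were also called in the fibroblast- and mural-like class, in which 19 further members were called; the arms of these comparisons use different cells of the same 2 libraries. Bst2 went from 342 CPM (313 to 373) to 1336 CPM (1295 to 1378), a log2 ratio of 1.97, and had UMIs in 76 of 80 and 167 of 167 cells. Irf7 went from 49.8 to 206 CPM (2.05, 1.70 to 2.42) and Ifi204 from 14.6 to 80.4 CPM (2.46). Ifi27l2a had 3 UMIs in vehicle and 273 in TAK-931 cells (1.99 and 89.5 CPM; 5.49, 3.93 to 7.78), of which the free-RNA estimate covers 29.6 CPM and 10 cells held 74.4%. Phf11b, a zinc finger gene, had 0 and 69 UMIs, at least 11.4-fold higher, although its reads may be shared with the near copy Phf11d.

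Isg15 and Slfn5, among the most abundant members here, and the 5 lowest ratios among members with at least 50 UMIs were not called. Isg15 stood at 390 CPM (359 to 423) in vehicle and 379 CPM (358 to 402) in TAK-931 cells, so that its intervals overlapped. Slfn5, of the Schlafen family, stood at 326 and 349 CPM (0.10), and the viral RNA sensor Ifih1 at 38.5 and 32.8 CPM (-0.23, -0.71 to 0.26). Rsad2 was at 150 and 114 CPM (-0.39), Oasl1 at 69.7 and 48.5 CPM (-0.52), the nucleotide kinase Cmpk2 at 19.3 and 13.1 CPM (-0.55, -1.28 to 0.19) and Eif2ak2, the kinase PKR, at 85.6 and 62.0 CPM (-0.47). One cell gave 52.2% of the vehicle Rsad2 UMIs, and 17 of 80 vehicle cells had any, against 63 of 167 in TAK-931. By share of cells after thinning each cell to 4000 UMIs, Rsad2 was seen in 12.5% and 20.4% of cells, which is the opposite order to its CPM. The abundant Ifitm3 (2276 and 3391 CPM, 0.58) and Parp14 (126 and 215 CPM, 0.77) were not called either. Phagocyte markers summed to 25.9 CPM (6 of 7, Fcgr1 at 0) in vehicle and 202 CPM (7 of 7) in TAK-931 endothelial-like cells, and with the free-RNA estimate subtracted 14 members were still called.

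Phagocyte-like cells, the largest host class, had the highest summed member level of the 6 compared classes in both libraries, and most members differed by less than 2-fold between them. In vehicle cells Ifi27l2a and Ifitm3 made up more of that sum than all other members together, and 23 of 39 members lay under 50 CPM. Markers of other cells were scarce in the class. The largest such lists in vehicle were J558 (62.3 and 32.1 CPM in vehicle and TAK-931), neutrophil (59.7 and 76.5 CPM) and endothelial (51.3 and 73.6 CPM). The 6 T cell markers stood at 3.44 CPM in vehicle (4 of 6, Cd3d and Cd3g at 0) and 32.3 CPM in TAK-931 (6 of 6). The 6 fibroblast markers stood at 7.27 CPM (3 of 6) and 42.6 CPM (6 of 6). Of 38 counted members 3 were at least 2-fold higher and 0 lower, where 13.1% of all 13478 counted genes were higher and 8.64% lower, so the share of members past 2-fold (7.89%) was below that of all genes. The differences were small and mostly in 1 direction, with 31 of 38 log2 ratios above 0, against 6843 of all 13478 counted genes. The interval lay wholly above 0 for 24 members and wholly below 0 for 3 (Ifit3b, Ifi35, Trim30a). The 3 called members were Oasl1, an inhibitor of IRF7 translation (47.8 and 142 CPM; 1.57, 1.31 to 1.83), Stat2 (18.0 and 44.6 CPM; 1.31, 0.89 to 1.76) and Oasl2 (42.8 and 88.9 CPM; 1.05, 0.78 to 1.34). Parp9 (0.96), Rtp4 (0.93) and Irf7 (205 and 391 CPM; 0.93, 0.80 to 1.05) came next.

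The most abundant members differed by less. Ifi27l2a stood at 1985 and 2786 CPM (0.49), Ifitm3 at 1246 and 2052 CPM (0.72), Bst2 at 314 and 419 CPM (0.42) and Samhd1, a nucleotide hydrolase, at 252 and 416 CPM (0.72). Isg15 stood at 286 and 390 CPM (0.45, 0.34 to 0.56), Ifit1 at 29.1 and 44.1 CPM (0.60), Ifit3 at 30.6 and 36.9 CPM (0.27, -0.06 to 0.61) and Irf9 at 39.0 and 59.8 CPM (0.62). Usp18 at 20.7 and 23.3 CPM (0.17, -0.23 to 0.60) and Rsad2 at 99.4 and 121 CPM (0.28) were close to equal. The lowest ratios were those of Ifit3b (24 and 177 UMIs; -0.77, -1.39 to -0.09), Ifi35 (-0.25), Trim30a (-0.22), Eif2ak2 (-0.15) and the RNA sensor Ddx58 (-0.13). Ifit3b is a near copy of Ifit3, and the split of reads between them is uncertain.

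Cells low in the complement genes C1qa, C1qb and C1qc carried more of the list than C1q-high cells in each library. The summed level was 9611 and 12501 CPM in C1q-low and 4798 and 7247 CPM in C1q-high phagocyte-like cells (85 and 789, and 124 and 1192 cells). Between libraries, 3 of 38 members were at least 2-fold higher in C1q-high cells (Oasl1, Irf7, Stat2) and 0 lower, where 13.6% of all genes were higher and 10.4% lower. In C1q-low cells 6 of 38 were higher (Oasl1, Oasl2, Oas2, Stat2, Rsad2, Parp9) and 0 lower, where 16.4% of all genes were higher and 5.87% lower. Rsad2 stood at 101 and 84.6 CPM in C1q-high cells (-0.25) and at 95.9 and 201 CPM in C1q-low cells (1.07, 0.72 to 1.43). Its vehicle UMIs came from 15 C1q-high cells, with 97.4% in 10 of them, and from 9 C1q-low cells, with 38.6% in 1. Irf7 had 1.20 in C1q-high and 0.40 in C1q-low cells. Differences between the subclasses were not tested. They were cut at 10 C1q UMIs per 10000 UMIs of a cell, and 3 vehicle and 120 TAK-931 cells lay between 5 and 20.

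In J558-like cells the summed member level was the lowest of the 6 compared classes in both libraries. Of 34 counted members 17 were at least 2-fold higher and 0 lower, where 11.4% of all 14754 counted genes were higher and 7.27% lower. Among the 24 members whose sums over both libraries reached 50 UMIs, 8 were higher and the median was 0.62. When all kept cells were clustered without the members, the largest group of vehicle J558-like cells (996 of 2994) and that of TAK-931 J558-like cells (39 of 104) lay in different clusters. Both clusters held cells of both libraries, 1003 vehicle and 11 TAK-931 cells in the first and 627 and 39 in the second. The class thus compares cells spread over clusters in different proportions. Isg20 stood at 97.2 and 78.0 CPM (-0.32, -0.44 to -0.20), Bst2 at 76.4 and 114 CPM (0.58) and Samhd1 at 71.6 and 105 CPM (0.55). Irf7 was equal at 21.9 and 22.1 CPM (0.01, -0.22 to 0.23). Irf9 (19.1 and 12.2 CPM; -0.64), Ifi35 (25.2 and 18.6 CPM; -0.44) and Xaf1, a proapoptotic factor (4.60 and 3.21 CPM; -0.52, -1.16 to 0.06), were at the low end.

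Of the members above 10 CPM in vehicle, Ifi27l2a had the widest ratio, at 22.9 and 186 CPM (3.03, 2.93 to 3.12), followed by Isg15 (10.1 and 33.5 CPM; 1.72) and Ifitm3 (28.7 and 82.0 CPM; 1.51). Stat2 stood at 2.19 and 4.62 CPM (1.08). With the free-RNA estimate taken off both levels, Ifi27l2a was 7.58-fold and Isg15 2.99-fold higher, whereas Ifitm3 (1.95-fold) and Stat2 (1.82-fold) fell below the 2-fold limit. Slfn5 (43 and 46 UMIs; 4.19) and Trim30a (48 and 40 UMIs; 3.83) rested on few cells, with 73.9% of the TAK-931 Slfn5 UMIs in 1 cell. Ifit1 had 14 and 16 UMIs, Usp18 3 and 12 (6.09, 4.20 to 8.56), and Rsad2 4 and 8, although the vehicle class held 2994 cells and the TAK-931 class 104. Ifit3, with 1 and 7 UMIs (6.90, 3.94 to 12.39), was below the minimum and not counted, and its 0.898 CPM after TAK-931 lay near the free-RNA estimate of 0.624 CPM.

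Other cells' RNA moved with these values. In J558-like cells the 7 phagocyte markers (7 of 7 detected in both) summed to 15.4 CPM in vehicle and 137 CPM in TAK-931, and the 6 T cell markers (6 of 6 in both) to 1.25 and 110 CPM. After thinning to 4000 UMIs, Lyz2, a phagocyte gene, was seen in 0.835% of vehicle and 22.1% of TAK-931 J558-like cells (7.65% and 91.3% without thinning). For comparison Lyz2 was seen in 23.1% of the T-like cells of the TAK-931 library, at median depths of 75948.5 UMIs in J558-like and 13735.5 UMIs in T-like cells. The free-RNA estimate predicted 42.9 of 462 CPM of the summed member level in vehicle and 169 of 811 CPM in TAK-931 cells. By gene, 25 of the 39 members in the TAK-931 library lay above 2 times their predicted level, and 5 lay at or below it, among them Rsad2 and Oasl2. With the estimate subtracted, 13 members were called higher and 2 lower (median 0.72), but of the 13, 2 had nothing left in either library and 5 nothing left in vehicle, so that their ratios rest on the 0.5 UMI added. Of the 26 members with UMIs left in both libraries, 6 were higher and 2 lower (median 0.44). With a stricter limit on a second class's markers (chosen after seeing the data), 12 of 30 were higher (median 0.50), and in cells thinned to 4000 UMIs 5 of 22 were higher (median 0.44). No share of all genes is given under these settings.

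**Figure D4:**
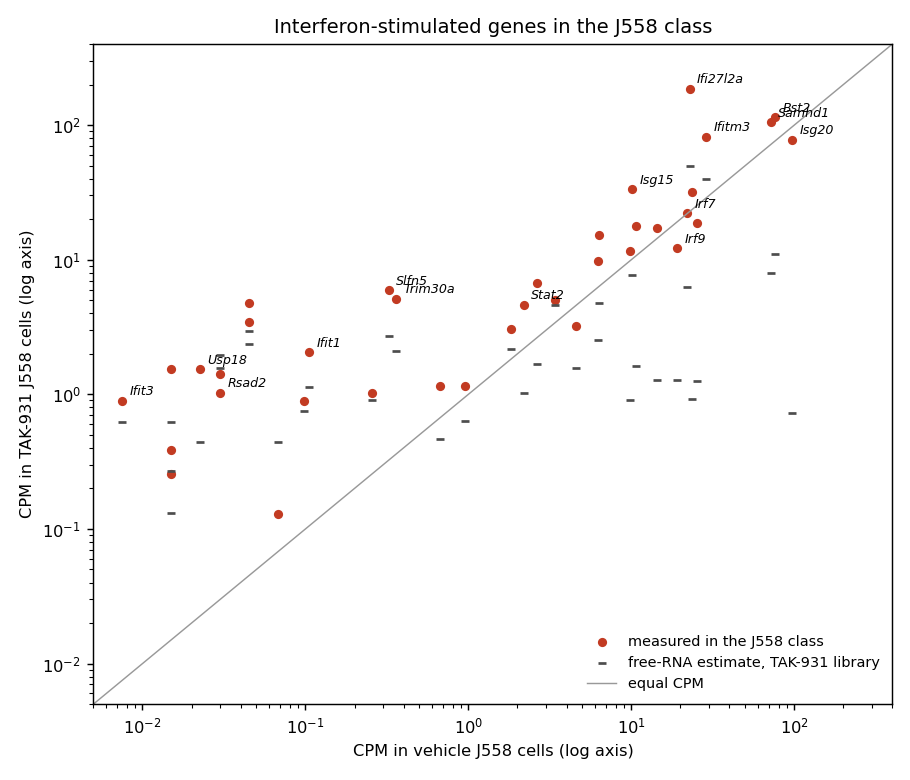
CPM of members with UMIs in both libraries in J558-like cells, vehicle against TAK-931, on log axes (points), with the free-RNA estimate for the TAK-931 library (dashes) and the line of equal CPM. Isg20 and Irf7 lie near the line, and Ifi27l2a, Ifitm3 and Isg15 lie above it.

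Dendritic-like cells (14 and 37) gave a mixed picture from few cells. Of 26 counted members 8 were at least 2-fold higher and 3 lower, where 17.0% of all 6381 counted genes were higher and 7.21% lower. Among members with at least 50 UMIs, Samhd1 stood at 154 and 332 CPM (1.11, 0.58 to 1.67) and Ifi204 at 28.1 and 94.6 CPM (1.75, 0.56 to 3.24). Slfn5 (0.71), Bst2 (248 and 391 CPM; 0.66) and Irf9 (0.55) came next among these. The other 6 called higher (Xaf1, Usp18, Phf11d, Parp9, Dtx3l, Stat2) rested on 1 to 4 vehicle UMIs each, and the widest, Xaf1 with 1 and 17 UMIs, had an interval that included 0 (2.21, -0.46 to 7.60). Ifi35 was at 117 and 55.0 CPM (-1.09, -1.83 to -0.32), and Irf7 at 206 and 166 CPM (-0.31, -0.81 to 0.22), with 72.7% of its vehicle UMIs in 1 cell. Ifi27l2a (1072 and 1220 CPM), Ifitm3 (842 and 824 CPM), Isg15 (187 and 181 CPM) and Phf11b (131 and 124 CPM) had overlapping intervals. In the same cells the 7 phagocyte markers summed to 505 CPM in vehicle (6 of 7, Adgre1 at 0) and 900 CPM in TAK-931 (7 of 7), and the 6 T cell markers to 4.68 CPM (1 of 6) and 62.6 CPM (6 of 6); their part in these values was not tested.

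T-like cells compared 12 vehicle with 616 TAK-931 cells, and the vehicle side held only 298 member UMIs. Of 36 counted members 6 were at least 2-fold higher and 3 lower, where 14.4% of all 11532 counted genes were higher and 12.7% lower, so the share of members called was close to that of all genes in both directions. With free RNA subtracted 4 of 36 were higher and 7 lower (2 and 6 of the 30 members with UMIs left in both libraries), and after thinning 6 of 34 were higher and 7 lower. The free-RNA estimate was 0% in vehicle and 1.63% in TAK-931 T-like cells, so subtraction lowered the TAK-931 levels only. No share of all genes is given beside these counts. Ifi27l2a was the exception with depth, at 348 CPM (270 to 440) in vehicle and 1463 CPM (1441 to 1486) in TAK-931 cells (2.07). The 7 phagocyte markers summed to 55.4 CPM in vehicle (3 of 7, with Csf1r, Cd14, Adgre1 and Fcgr1 at 0) and 148 CPM in TAK-931 T-like cells (7 of 7), and the 8 dendritic markers to 25.2 CPM (3 of 8) and 86.6 CPM (7 of 8). The free-RNA estimate covered 30.0 of the 1463 CPM of Ifi27l2a. Samhd1 stood at 131 and 208 CPM (0.67, 0.11 to 1.28), and Isg15 at 116 and 91.8 CPM (-0.34, -0.93 to 0.33), Bst2 at 111 and 106 CPM, and Phf11b at 95.7 and 66.8 CPM (-0.52) did not separate. Ifitm3 rested on 1 vehicle UMI against 755 (3.71, 1.23 to 9.02), and Herc6, Ifi44 and Slfn5 had 0 vehicle UMIs, for which the floor of 3 counts gave at most 1.83-fold. Isg20 was lower (75.6 and 30.4 CPM; -1.31, -2.05 to -0.46), as was Usp18 (25.2 and 4.64 CPM; -2.44), whose 5 vehicle UMIs all came from 1 cell. Dhx58 (-0.94), Stat2 (-0.70) and Ddx58 (-0.61) had intervals that included 0. With libraries at 0 set to 3 UMIs, 3 members were higher.

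Cells within a class differed widely in the summed member level. In phagocyte-like cells the median was 55.0 member UMIs per 10000 UMIs of a cell in vehicle (5th to 95th percentile 14.8 to 202) and 79.8 in TAK-931 (23.5 to 223), so the libraries overlapped over most of their range. In endothelial-like cells the medians were 41.1 and 73.7, and 37.9, the 5th percentile in TAK-931, lay near the vehicle median. In fibroblast- and mural-like cells they were 29.2 and 69.6, and in J558-like cells 4.32 and 6.64. T-like cells of the TAK-931 library were the most uneven, with a median of 15.9, a 95th percentile of 110 and 40.0% of all member UMIs in the 62 highest of 616 cells. Thinned to 4000 UMIs, a phagocyte-like cell held a median of 7 and 10 different members, an endothelial-like cell 6 and 9, a fibroblast- or mural-like cell 4 and 9, and a J558-like cell 1 and 2.

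**Figure D5:**
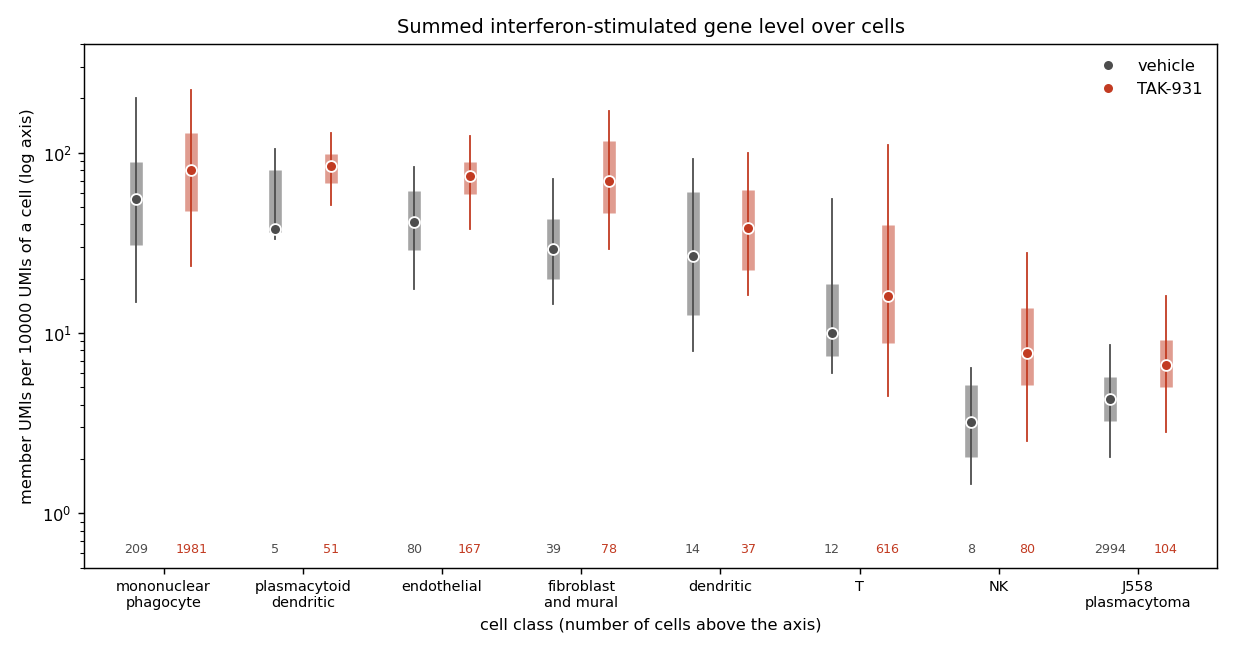
Member UMIs per 10000 UMIs of a cell on a log axis for 8 cell classes, vehicle in grey and TAK-931 in red, with the median (point), quartiles (thick bar), 5th to 95th percentile (line) and the number of cells. The median is higher in TAK-931 in each class, the ranges overlap in each class, and vehicle plasmacytoid dendritic-like and NK-like cells number only 5 and 8.

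Members varied together only weakly over the thinned cells of the TAK-931 library. Over 1981 phagocyte-like cells the median Pearson correlation between pairs of the 36 members seen in at least 5% of cells was 0.14, with 15 of 630 pairs below 0. It was 0.13 in fibroblast- and mural-like cells (102 of 496 below 0), 0.063 in T-like cells (26 of 276) and 0.058 in endothelial-like cells (146 of 561). In phagocyte-like cells Isg15 followed the sum of the other members most closely (r = 0.63), then Ifi44 (0.60), whereas Lgals3bp did not (0.02). Over 78 fibroblast- and mural-like cells the closest was Ifit1 (0.70), and over 167 endothelial-like cells Isg15 (0.43). These values are descriptions of cells that share a library, and sparse counts lower them.

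Other genes of the pathway were read in the same sums. The ligands were almost unseen in the compared classes. Plasmacytoid dendritic-like and other small classes, mixed barcodes and barcodes left out by the filter were not read for them. The 17 type I interferon genes together had 2 UMIs in vehicle and 7 in TAK-931 phagocyte-like cells, 5 and 1 in fibroblast- and mural-like, 1 and 1 in endothelial-like, 14 and 2 in J558-like cells, and 0 in dendritic-like and T-like cells of both libraries. The only ligand that reached 10 UMIs in a class was Ifnk in J558-like cells, with 10 and 2 UMIs, which passed 2-fold but had an interval that included 0 (1.77, -1.46 to 4.00). The receptor genes Ifnar1 and Ifnar2 lay within 2-fold in every compared class except T-like cells, for example at 290 and 344 CPM (Ifnar2) in phagocyte-like and 149 and 186 CPM in fibroblast- and mural-like cells.

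Upstream, 13 genes for the induction of interferon were read. Of 10 counted in fibroblast- and mural-like cells 3 were higher and 1 lower, and of 10 in endothelial-like cells 1 and 2. In phagocyte-like cells 2 of 12 were higher and in J558-like cells 2 of 10, with 0 lower in both. Among them Zbp1, a sensor of Z-form nucleic acid that interferon also induces, was higher in endothelial-like (2.36) and fibroblast- and mural-like cells (1.38). Tmem173, which encodes STING, was lower in both (-1.22 and -1.15) and in phagocyte-like cells (-0.54, -0.78 to -0.30), and equal in J558-like cells (45.0 and 45.0 CPM). Of 4 brakes on the pathway, 3 were higher in fibroblast- and mural-like (Socs1, Socs3, Ptpn6), 2 in endothelial-like (Socs1, Ptpn6), 1 in phagocyte-like (Socs1) and 1 in J558-like cells (Socs3, 65 and 37 UMIs), and none was lower in these classes. Socs1, which inhibits JAK kinases, stood at 36.7 and 296 CPM (3.01, 2.53 to 3.53) in fibroblast- and mural-like, 39.8 and 185 CPM (2.21) in endothelial-like, 29.1 and 85.2 CPM (1.55) in phagocyte-like and 6.07 and 6.03 CPM (-0.01) in J558-like cells.

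Genes more tied to interferon gamma, 18 of them, differed more than the members in each compared class by median. The median log2 ratio was 3.76 in fibroblast- and mural-like cells (17 of 17 counted genes at least 2-fold higher), 2.21 in endothelial-like (17 of 18), 1.43 in phagocyte-like (13 of 18), 1.93 in J558-like (9 of 16), 1.25 in dendritic-like (9 of 14) and 0.37 in T-like cells (5 of 17, with 2 lower). With genes at 0 in vehicle held at the floor of 3 counts, these medians were 3.53 in fibroblast- and mural-like and 0 in T-like cells, and the same in the other 4 classes. In J558-like cells the 18 genes summed to only 46.2 and 99.3 CPM, against 2500 CPM in phagocyte-like and 8057 CPM in endothelial-like cells of the TAK-931 library. No free-RNA subtraction is given for these genes, and the part of other cells' RNA in the J558-like ratios was not tested. Cxcl10, a chemokine that draws activated T cells and responds to both interferon types, had 1 UMI in vehicle and 2145 in TAK-931 fibroblast- and mural-like cells (9.86, 7.38 to 15.17). Irf1, a factor induced by interferon gamma, stood at 35.7 and 409 CPM there. Ifng itself had 4 UMIs in vehicle and 915 in TAK-931 T-like cells (20.2 and 80.0 CPM; 1.99, 0.63 to 3.87). Which interferon the members followed was not tested, since most of them respond to more than 1.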

How the data were processed

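The deposited matrices hold raw UMI counts per gene and barcode from 3′ droplet libraries, made by the authors with Cell Ranger 6.0.0 and not normalized. The submitters' processing notes name mm10, while the study's methods name a human build for all its single-cell work; the gene rows are mouse genes. The members and all gene lists were chosen with earlier results of these data known.

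The study's cell filter was applied (more than 2000 genes, less than 15% of UMIs mitochondrial). Per class, markers were averaged as the log of 1 plus UMIs per 10000 and scaled by the mean of the 20 highest cells. A cell took the class of its highest score if that reached 0.3 and no other score passed 0.5 of it, and otherwise had no class or was mixed. This rule was set after the files were seen. Fibroblast and mural lists were joined. No doublet caller was run, and mixed barcodes were left out. Within 0.05 of the lowest score lay 21 vehicle and 29 TAK-931 cells, and of the second-score limit 19 and 124.

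UMIs were summed per class and library, for classes with at least 10 cells in each. CPM have exact Poisson, shares exact Clopper-Pearson and ratios exact conditional binomial intervals, at 95%. A gene at 0 in 1 library had 0.5 UMI added for its log2 ratio, and is given in the text against a floor of 3 counts. For free RNA, each other class's marker at 20 CPM or more in the library gave a ratio of its level in the class to that in the library, and the median ratio was used. Named were, per class, the 5 most abundant members and the 5 highest and 5 lowest ratios among members with at least 50 UMIs, and in J558-like and phagocyte-like cells also Isg15, Ifit1, Ifit3, Rsad2, Usp18, Irf7, Irf9, Stat2, Bst2 and Ifitm3; others were chosen after their values were seen. Alternatives changed the cell filters, the classes (also by Leiden clusters), scaling, thinning to 4000 UMIs, free RNA, minimum counts and near-identical genes. Python 3.11.15, scanpy 1.11.5, numpy 2.4.6 and scipy 1.17.1 were used.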

Additional observations from a re-analysis of the deposited data

Results flagged for a closer look

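Usp18 lay in opposite directions in 2 classes, with a log2 ratio of -2.44 in T-like and 6.09 in J558-like cells. The difference between the classes was not tested. It rests on 5 vehicle UMIs from 1 T-like cell, and on 3 vehicle and 12 TAK-931 UMIs in J558-like cells, most of the latter in 1 cell.

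Member transcripts were also present in barcodes that the cell filter left out. Barcodes with over 500 and at most 2000 genes held 5472 CPM of member UMIs in the TAK-931 library (1147 barcodes) and 2061 CPM in the vehicle library (722 barcodes). Barcodes with at least 15% mitochondrial UMIs held 4625 CPM (1407 barcodes) and 578 CPM (174 barcodes). These sums mix cell types, whose shares differ between the libraries.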

How the results depend on the processing

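No paired analysis was possible because each arm held 1 library, and for the same reason no replicate could be left out. The median member log2 ratio stayed above 0 under all alternatives run in fibroblast- and mural-like (17 alternatives, 1.53 to 2.63), endothelial-like (15, 0.66 to 1.02), phagocyte-like (17, 0.30 to 0.53), J558-like (15, 0.44 to 1.29) and dendritic-like cells (13, 0.28 to 0.58). In T-like cells it ran from -0.33 to 0.10, above 0 in 3 of 15. In J558-like cells it moved from 1.00 to 0.50 with the stricter second-score limit, chosen after seeing the data, and to 0.44 after thinning; the cause was not tested. There 17 members were called higher, against 11 with Leiden clusters, 8 with a minimum of 50 UMIs and 5 after thinning, the latter with fewer members counted (24 and 22). Other counts of higher members that moved by over 1.5 times were 33 to 21 (of 26 counted) after thinning in fibroblast- and mural-like, 3 to 6 under median-ratio scaling or in C1q-low cells alone in phagocyte-like, 8 to 2 (minimum of 50 UMIs) and 4 (thinned) in dendritic-like, and 6 to 3 with libraries at 0 set to 3 UMIs in T-like cells. Members called lower in T-like cells went from 3 to 7 after thinning or free-RNA subtraction, and in endothelial-like cells from 0 to 3 with the stricter second-score limit. In vehicle T-like and dendritic-like cells the free-RNA estimate was 0%, so there subtraction lowered the TAK-931 levels only. Shares of all genes are given for the main settings and the subclasses only, not beside the other alternative counts. Median-ratio scaling put the median of all well-counted genes at -0.25 in endothelial-like, -0.25 in fibroblast- and mural-like, -0.15 in T-like and -0.11 in phagocyte-like cells, so member ratios are higher by that amount under it. With genes at 0 in vehicle set to the floor, or to no difference where that floor lay above the TAK-931 level, the member median was 1.96 in fibroblast- and mural-like and -0.03 in T-like cells. The dendritic-like class gave no value with the stricter second-score limit, for want of 10 cells in each library, nor with Leiden clusters, where all its cells lay in a cluster of 197 cells led by mixed barcodes (40.6%). Small sums limit T-like and dendritic-like values most, since their vehicle cells together hold 298 and 758 member UMIs.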

Other observations

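Among barcodes with over 500 and at most 2000 genes, those that met the neutrophil markers carried the highest member level of any class in the TAK-931 library. There 57 barcodes held 18848 CPM (interval 18180 to 19535), and 30 in the vehicle library held 7404 CPM (6700 to 8163). Their leading members in both libraries were Ifi27l2a, Ifitm3 and Isg15. Their median depths were 2547 and 1645.5 UMIs. Phagocyte-like barcodes of the same gene range held 10423 and 8230 CPM, the latter above the vehicle neutrophil-like level. Neutrophils hold little RNA, and only 5 TAK-931 and 1 vehicle neutrophil-like cells passed the filter on genes.

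Plasmacytoid dendritic-like and NK-like cells were too few in the vehicle library to be compared (5 and 8 cells). The summed member level of plasmacytoid dendritic-like cells was 8802 CPM in TAK-931 and 5699 CPM in vehicle. That of NK-like cells was 992 and 315 CPM, and that of mixed barcodes 6870 and 2402 CPM.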
